A study of Drosophila melanogaster with 2 samples.

Results

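The ecdysone response regulators are 10 genes of Drosophila melanogaster: the receptor genes EcR and usp, the early genes br, Eip74EF and Eip75B, the nuclear receptor genes Hr3, Hr4, Hr39 and ftz-f1, and Eip93F. They were chosen by name and function from 13945 protein-coding genes on the 6 chromosome arms used. No measured value set the choice, but earlier results of these data were known. The data are ChIP-seq peak lists for Tiptop (Tio), a zinc finger transcription factor, fused at its C-terminus to enhanced GFP and precipitated with an antibody to GFP. All embryos carried the tio-GFP transgene. They were whole, of mixed sex and collected from 4 to 24 h of development, so that 1 list averages over all tissues and over this whole interval. The 2 biological replicates form 1 group, there is no other condition to compare them with, and values of the control library were not used here. No p-value is therefore given, and the main counts stand beside the same share over a wider set of genes or peaks.

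The steroid 20-hydroxyecdysone binds a heterodimer of 2 nuclear receptors, EcR and Ultraspiracle, the product of usp. The liganded receptor switches on a small set of early genes that encode transcription factors, and these in turn switch on or repress later genes in a timed cascade. The cascade is best known from moulting and metamorphosis, and an ecdysone pulse also occurs in the embryo, where it is needed for germ band retraction and head involution. Most of these genes have several promoters that give isoforms with different first exons.

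The list selected by irreproducible discovery rate (IDR), which compares peak ranks between replicates, held 3793 peaks on genome build dm6. Replicate lists and a pooled list of 30000 regions each also contain background regions. Each IDR peak carries the authors' signal value, whose scaling is not given in the sources used here. Its median in the IDR list was 145 and its lowest value 87.5. A gene was said to hold a peak if the summit lay in its annotated span or up to 1 kb upstream. By this count 9 of the 10 genes held 32 IDR summits, and Hr39 held none. Of all protein-coding genes, 16.2% held an IDR summit. Most of the 10 are long, however, and long genes hold peaks more often: of 1013 protein-coding genes of 20 kb or more, 57.7% held an IDR summit, against 8 of the 9 regulator genes of that length.

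The 32 summits were spread unevenly. Eip75B held 7, Hr4 and ftz-f1 6 each, Hr3 5, EcR 3, Eip74EF 2, and usp, br and Eip93F 1 each. The 4 genes with 5 or more summits held 24 of the 32. Among protein-coding genes of 20 kb or more, 9.67% held 5 or more. Hr3 had the most for its length of the 4, with 1.46 summits per 10 kb, followed by ftz-f1 with 1.16, Hr4 with 0.895 and Eip75B with 0.610, where the median over genes of 20 kb or more was 0.200. Of the genes that held a summit, br with 0.110 and Eip93F with 0.151 per 10 kb stood lowest.

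**Figure D1:**
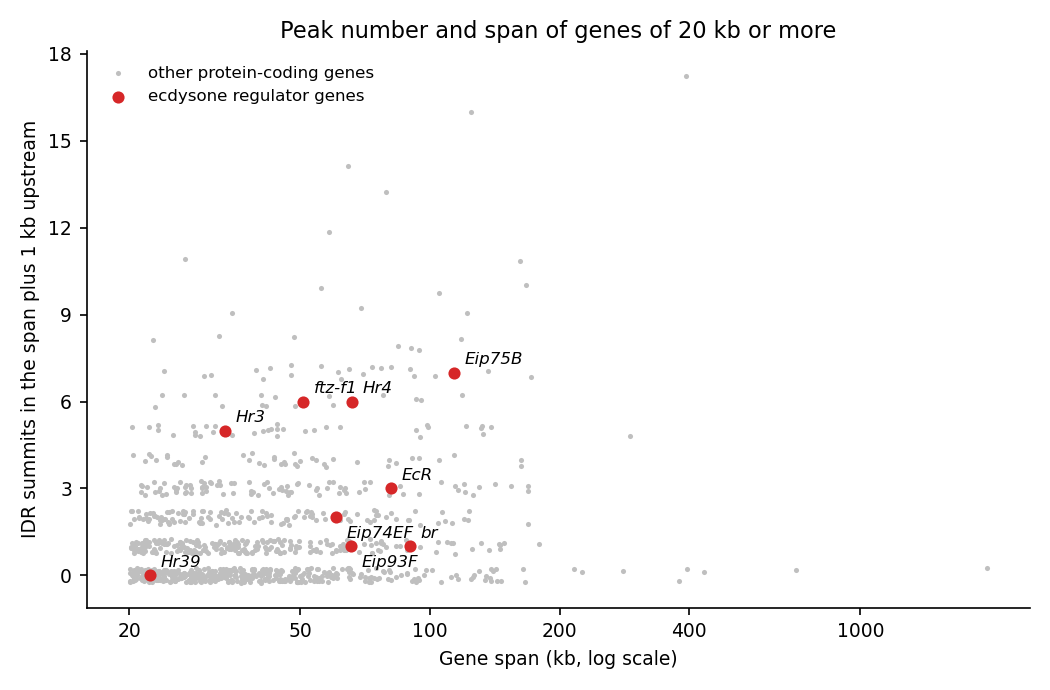
Number of IDR summits in the span plus 1 kb upstream (vertical axis) against gene span in kb (horizontal log axis) for the 1013 protein-coding genes of 20 kb or more, with the 9 ecdysone regulator genes of that length in red and the others in grey (moved vertically by up to 0.25 so that points can be told apart). Eip75B, ftz-f1, Hr4 and Hr3 stand at 5 to 7 summits, and Hr39 at 0.

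Summit sequences are shown for 7 of the peaks, as the plus strand of dm6 from 100 bp before to 100 bp after the summit, read from the RefSeq genome. They are the strongest peaks of Eip75B and Hr4, the peak over the start site of Eip75B-RC and the one upstream of usp-RA, the sole peak of br, the only summit with the nuclear receptor hexamer AGGTCA (Eip74EF), and a summit of ftz-f1 that carries both the related hexamer AGTTCA and the homeodomain core TAATTA. Capitals mark these sequences and GAGAG, the core to which GAGA factor binds, on either strand, so that TGACCT is AGGTCA on the minus strand. Of these genes br and Hr4 are transcribed from the plus strand and the others from the minus strand.
Eip75B, strongest peak, chr3L:18005119-18005319: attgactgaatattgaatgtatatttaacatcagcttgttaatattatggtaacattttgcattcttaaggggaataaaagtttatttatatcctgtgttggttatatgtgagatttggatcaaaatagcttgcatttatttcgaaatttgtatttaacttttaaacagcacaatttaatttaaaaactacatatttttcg
Eip75B-RC start site, chr3L:17999698-17999898: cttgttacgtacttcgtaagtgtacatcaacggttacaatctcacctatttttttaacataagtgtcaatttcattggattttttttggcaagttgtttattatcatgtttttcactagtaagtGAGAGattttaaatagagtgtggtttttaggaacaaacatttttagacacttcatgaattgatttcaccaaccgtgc
Hr4, strongest peak, chrX:1947669-1947869: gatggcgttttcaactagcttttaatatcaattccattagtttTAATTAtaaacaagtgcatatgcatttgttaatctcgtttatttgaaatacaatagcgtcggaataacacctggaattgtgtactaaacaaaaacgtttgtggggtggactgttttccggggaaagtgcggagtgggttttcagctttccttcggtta
br, chrX:1618774-1618974: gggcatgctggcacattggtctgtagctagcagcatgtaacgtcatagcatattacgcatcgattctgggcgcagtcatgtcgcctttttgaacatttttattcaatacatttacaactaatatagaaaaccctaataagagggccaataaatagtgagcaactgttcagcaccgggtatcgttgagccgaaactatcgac
usp, upstream of the usp-RA start, chrX:2041446-2041646: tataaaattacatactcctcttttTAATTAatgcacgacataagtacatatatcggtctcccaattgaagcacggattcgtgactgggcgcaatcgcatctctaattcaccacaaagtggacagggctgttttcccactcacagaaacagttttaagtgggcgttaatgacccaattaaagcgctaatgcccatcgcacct
Eip74EF, downstream peak, chr3L:17566970-17567170: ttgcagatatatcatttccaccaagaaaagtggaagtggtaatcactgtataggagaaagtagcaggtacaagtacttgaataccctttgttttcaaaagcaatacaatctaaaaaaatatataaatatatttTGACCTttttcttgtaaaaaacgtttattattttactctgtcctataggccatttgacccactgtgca
ftz-f1, intron, chr3L:18786858-18787058: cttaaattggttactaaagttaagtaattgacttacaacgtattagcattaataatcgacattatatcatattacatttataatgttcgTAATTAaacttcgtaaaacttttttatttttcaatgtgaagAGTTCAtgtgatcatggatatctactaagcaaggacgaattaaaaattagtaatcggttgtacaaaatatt

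The windows differed in base composition. The strongest Eip75B summit was the poorest in G and C of all 32, at 24.4% G+C, and the ftz-f1 window shown stood at 24.9%, while the windows at usp (42.3%) and br (42.8%) were richer. Over the 32 summits G+C averaged 35.3% ± 6.50 (SD across summits, which are not replicates), against 45.3% ± 6.54 in flanking windows centred 500 bp to either side. All 3793 IDR summits stood at 33.8% ± 5.99, with flanks at 43.0% ± 6.27.

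The hexamer AGGTCA, the core to which many nuclear receptors bind, occurred within 100 bp of 1 of the 32 summits, in Eip74EF (33 bp from the summit), and within 100 bp of 4.24% of all IDR summits. AGTTCA, the other hexamer of ecdysone response elements, occurred at 4 of the 32, in Eip74EF, Eip75B, Hr3 and ftz-f1, against 12.2% of all. Together the hexamers were at 15.6% of the regulator summits and 15.8% of all IDR summits. The exact inverted repeat of AGGTCA with 1 base between the copies, the canonical ecdysone response element in perfect form, was at 0 of the 32 and at 0 of the 3793. Imperfect repeats were not searched, so this count does not cover them. TAATTA was at 7 of the 32 (21.9%, against 19.1% of all) and GAGAG at 5 (15.6%, against 20.8%). TCAAGGTC, a Ftz-f1 site that overlaps AGGTCA where an A follows it, the Ets site CCGGAAG and the DREF/BEAF-32 site TATCGATA were each at 0 of the 32, against 0.211%, 0.475% and 1.48% of all IDR summits. Both strands were searched. With 32 summits a single match is 3.12 percentage points. Within 200 bp of the summit, AGGTCA occurred at 15.6% of the regulator summits and 8.44% of all, and AGTTCA at 18.8% and 20.9%.

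Most regulator peaks lay over 1 kb from the start sites of their gene. Of the 32 summits, 6 were no more than 1 kb from a transcription start site (TSS) annotated for their gene, 8 between 1 and 5 kb, and 18 farther than 5 kb, with 22000 bp in Hr4 as the largest distance. For the 9 genes of 20 kb or more, 5 of 31 summits (16.1%) were that close to a start of their own gene, where the share over all protein-coding genes of that length was 27.2%. Summits farther than 5 kb made up 58.1% of these 31, against 44.1% of the 1578 summits of all genes of that length. By position, 29 summits were intronic, 2 lay in noncoding exon sequence (usp and Eip75B), 1 lay upstream of its gene (Eip75B) and 0 in a coding exon. Intronic summits made up 93.5% of the 31 and 89.0% of the 1578. Counting the TSS of any gene, 8 of the 32 lay within 1 kb, against 48.7% of all IDR summits. That share is not limited to summits of genes of 20 kb or more, as the shares before it are.

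**Figure D2:**
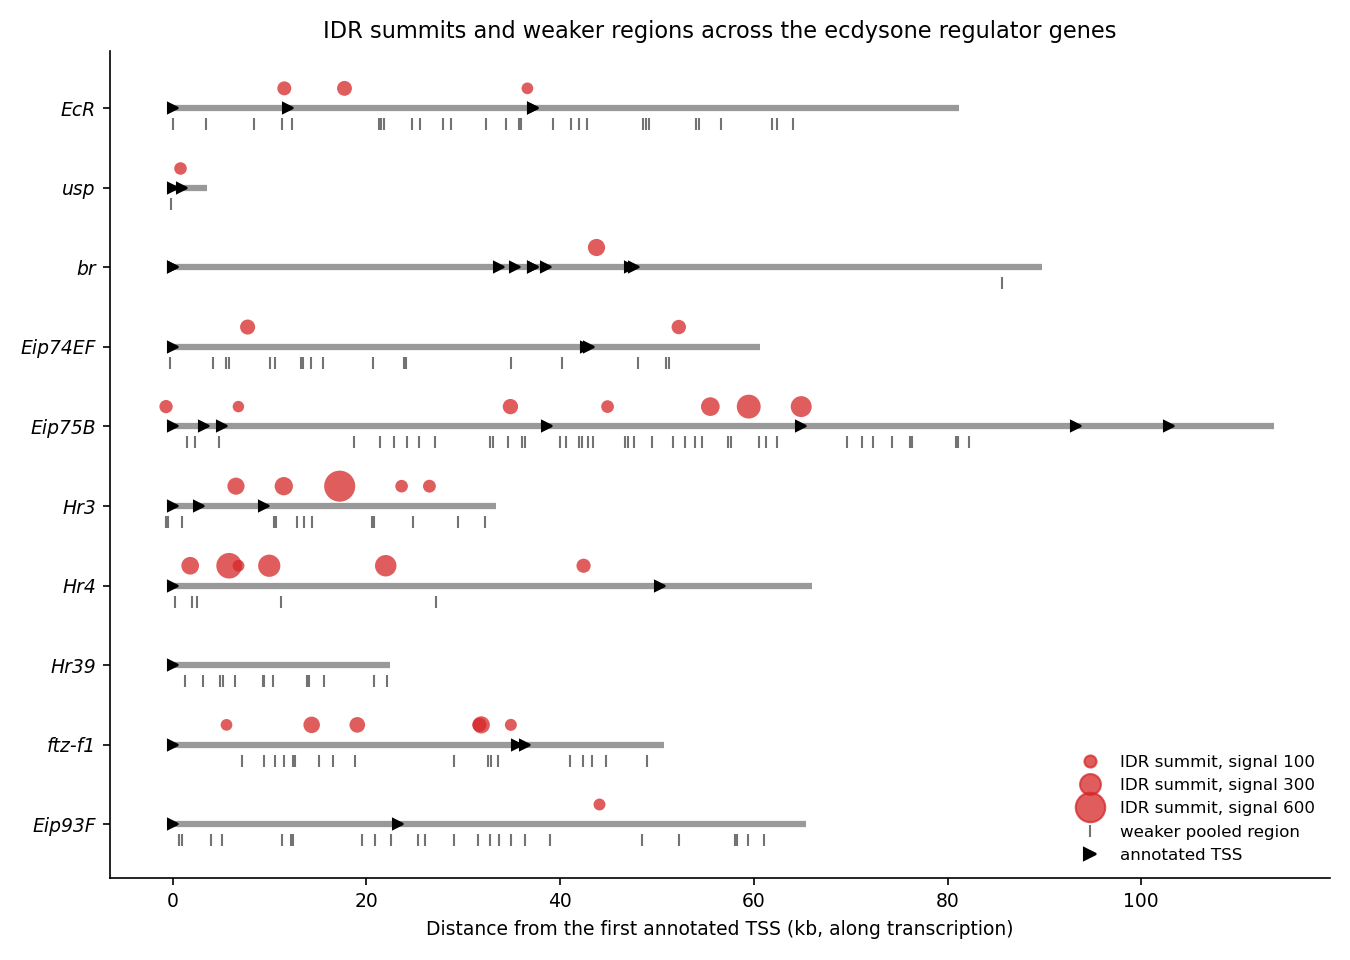
Map of each ecdysone regulator gene, with distance from its first annotated TSS in kb along transcription on the horizontal axis and 1 gene per row. Red circles are IDR summits with area proportional to signal, grey ticks are weaker regions of the pooled list, and arrowheads are annotated TSSs. The circles lie mostly between start sites, and br has no tick or circle at its start sites.

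The 10 genes have 36 distinct annotated TSSs, and 8 of these (22.2%) had an IDR summit within 1 kb, against 12.6% of all distinct TSSs of protein-coding genes. The 8 rest on only 6 summits, since a summit of EcR and the summit of usp each lay within 1 kb of a pair of start sites. They were the starts of EcR-RD and -RE, EcR-RB and -RC, EcR-RG, usp-RA, usp-RB, Eip75B-RF, Eip75B-RC, and ftz-f1-RC and -RD. A further 8 TSSs (22.2%, against 21.6% of all) had only a weaker region of the pooled list within 1 kb. No region of any list lay there at 15 (41.7%, against 50.4% of all). The isoform promoters of 1 gene therefore differed in whether a summit lay beside them, as the genes below show.

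EcR encodes the hormone-binding subunit of the receptor and spans 2R:6087873-6169087 on the minus strand. Its 3 summits were all intronic. The peak 431 bp upstream of the EcR-RD and -RE start (summit 6157560, signal 135) had signals of 72.3 in replicate 1 and 61.7 in replicate 2. The peak 539 bp upstream of the EcR-RB and -RC start (summit 6132461, signal 94.8) had 40.5 and 55.8. The strongest of the 3, at 6151347 with signal 154, lay 5782 bp downstream of the EcR-RD and -RE start and 1329 bp from a tRNA gene (tRNA:Asn-GTT-1-1). It had a signal of 99.8 in replicate 2, whereas the nearest summit of replicate 1 was 118 bp away and had 58.1. The start of EcR-RA, which lies farthest upstream, had no IDR summit within 1 kb, and the highest pooled region there had a signal of 37.4. IDR peaks thus lay just upstream of the internal promoters of EcR, and none lay near the distal one. The peaks at 6157560 and 6132461 ranked only 2096 and 3392 of 3793, so neither was among the 1896 highest of the IDR list. The peak at 6132461 ranked 5091 in replicate 1.

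usp, a gene of only 3514 bp (X:2038798-2042311, minus strand), encodes the RXR-type partner of EcR. Its single IDR summit (2041546, signal 109) lay 234 bp upstream of the usp-RA start and 765 bp into the gene from the usp-RB start, in a noncoding exon. The signal was 65.1 in replicate 1 and 37.2 in replicate 2, with a rank of 2547 in replicate 1 and 5173 in replicate 2. Without replicate 1, that is among the 3793 highest regions of replicate 2 alone, usp held no summit. The start of CG4313 lay 322 bp from the same summit, and the annotated span of Actn, which encodes alpha-actinin, also covers it, so the peak cannot be assigned to usp alone. Of genes within 1.25-fold of the length of usp, 14.5% held an IDR summit.

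br encodes the Broad zinc finger factors, which specify pupal development, and has 9 distinct TSSs over 89738 bp (X:1575132-1664869, plus strand). None of the 9 had a region of any list within 1 kb. The only IDR summit in the span (1618874, signal 205) lay in an intron 3434 bp upstream of the br-RS start, with signals of 114 in replicate 1 and 86.3 in replicate 2. It lay 719 bp from a start of Mur2B, which had the nearest protein-coding TSS and whose annotated span on the minus strand covers all of br. The pooled list held 1 other region in the whole span, of rank 18622 of 30000. This density of 0.220 pooled regions per 10 kb was lower than in all but 2.07% of protein-coding genes of 20 kb or more, whose median was 2.71. The nearest IDR summit outside the span lay 166108 bp away. Replicate 1 listed 6 regions in the span, and 3.55% of those genes had a lower density in that list. Replicate 2 listed 2, and 1.58% of those genes had a lower density there.

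Eip74EF encodes an Ets-domain factor (3L:17558672-17619325, minus strand) and held 2 intronic summits. The stronger (17611586, signal 157) lay 7739 bp downstream of the start shared by Eip74EF-RA, -RC and -RE, with a signal of 67.0 in replicate 2 and, at a summit 123 bp away, 95.0 in replicate 1. The other (17567070, signal 144) lay 9250 bp downstream of the Eip74EF-RD start, with 79.1 in replicate 1 and 66.7 in replicate 2. None of its 3 TSSs had an IDR summit within 1 kb. A further IDR peak lay outside the extended span, 2321 bp upstream of the first start, with a signal of 88.7.

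Eip75B, which encodes the haem-binding nuclear receptor E75, had the most peaks of the 10 genes, 7 in a span of 113744 bp (3L:17950953-18064696, minus strand). The 3 strongest lay within 10 kb of each other around the Eip75B-RC promoter. The summit at 17999798 (signal 303) lay 23 bp downstream of the Eip75B-RC start itself, with signals of 146 in replicate 1 and 151.5 in replicate 2, and was the only one of the 32 closer than 100 bp to a TSS. The summit 5398 bp upstream of that start (18005219) had the highest signal of the gene, 395, with 199.7 and 193. The summit 9362 bp upstream of it (18009183, signal 241) had 123 and 117. These 3 peaks differed by less than 0.1 on the log2 scale between the replicates.

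The other 4 peaks of Eip75B were weaker, with signals from 91.0 to 163. They lay 684 bp upstream of the Eip75B-RF start (122), 1688 bp downstream of the Eip75B-RB start (91.0), and 3792 bp upstream (163) and 6237 bp downstream (113) of the Eip75B-RG start. Each was higher in replicate 1 than in replicate 2, with the largest gap at 18029824 (100.7 in replicate 1 and 56.4 in replicate 2). No IDR summit lay within 1 kb of the starts of Eip75B-RE, -RB, -RG, -RA or -RD. Of these, -RG, -RA and -RD had no pooled region there either. Another IDR peak (17948822, signal 131) lay 2131 bp beyond the 3 prime end of the gene.

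Hr3 encodes the ROR-type receptor that in prepupae induces ftz-f1 and represses early genes, and held the strongest peak of the whole set. This summit (2R:10220103, signal 668) ranked 96 of 3793 in the IDR list, 132 in replicate 1 (signal 307) and 68 in replicate 2 (359). It lay in an intron, 7854 bp downstream of the start shared by Hr3-RA, -RF and -RH. All 5 Hr3 summits were intronic and lay inside CG12912, a gene annotated on the same strand within the Hr3 span. All but the one farthest upstream, the strongest included, also lay inside CG46321, which shares that start with Hr3, so these peaks cannot be assigned to Hr3 alone. Those 2083 bp downstream (signal 232) and 2854 bp upstream (203) of the same start had 144 and 110 in replicate 1, against 89.7 and 97.1 in replicate 2. The summits at 10213711 (signal 110.1) and 10210838 (114) were weaker, and 10210838 lay 509 bp from the start of lncRNA:CR46322. When each summit went to the nearest protein-coding TSS, these 2 went to CG34221. None of the 3 Hr3 TSSs had an IDR summit within 1 kb.

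Hr4 encodes a receptor that represses early genes at the onset of metamorphosis. It held 6 intronic summits in X:1941940-2007956 (plus strand), 5 of them within 22000 bp downstream of the start that 7 of its 9 transcripts share. The strongest (1947769, signal 454) lay 5829 bp downstream of that start, with 250.2 in replicate 1 and 198 in replicate 2. Those at 9971 bp (signal 342, with 189 and 148) and 22000 bp (signal 319, with 154 and 157) downstream followed. These 3 all ranked in the first 627 of both replicate lists. The summit at 1810 bp downstream (signal 217) had 139 and 79.7, and the one 7935 bp upstream of the Hr4-RE and -RF start (139) had 66.6 and 70.9. The last, only 971 bp from the strongest (1948740, signal 96.7), was much lower in replicate 1 (25.2, rank 14322) than in replicate 2 (61.7, rank 2481). An additional IDR peak (1940191, signal 173) lay 1749 bp upstream of the Hr4 start and so 749 bp outside the extended span.

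Hr39, a receptor gene of 22426 bp related in sequence to ftz-f1 (2L:21237250-21259675, plus strand), was the only one of the 10 without an IDR summit. It held 13 regions of the pooled list, a density of 5.55 per 10 kb that is higher than in 96.7% of protein-coding genes of 20 kb or more. The strongest of these (21240336, signal 64.7) ranked 5866 in the pooled list. It lay 3086 bp downstream of the single Hr39 start, with signals of 39.4 in replicate 1 and 24.4 in replicate 2. Of the 13, 3 were matched in both replicates, where the share over all weaker pooled regions was 26.5%. Replicate 1 listed 6 regions in the Hr39 span, a density higher than in 46.2% of those genes, and replicate 2 listed 12, higher than in 93.7%, so the high density was not seen in replicate 1. A high pooled density was not particular to Hr39. Hr3 had 5.24 per 10 kb, above 95.1% of those genes, and ftz-f1 4.64, above 90.1%. In replicates 1 and 2, Hr3 stood above 86.4% and 88.7% of them, and ftz-f1 above 89.5% and 92.5%. Of genes within 1.25-fold of the length of Hr39, 50.8% held an IDR summit. The nearest IDR summit to Hr39 lay 4291 bp beyond its 3 prime end (signal 96.3).

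ftz-f1 encodes the competence factor that allows a second response to ecdysone in late prepupae, and in the early embryo acts with the pair-rule factor Ftz. Its 6 summits, in 3L:18750607-18801309 (minus strand), were all intronic. Their signals ran from 94.8 (rank 3397 of 3793 in the IDR list) to 205 (rank 1127). A pair lay only 200 bp apart with overlapping intervals, 3704 and 3904 bp upstream of the ftz-f1-RC and -RD start. The summit at 18769448 of this pair (signal 205) had 110.2 in replicate 1 and 95.7 in replicate 2, while its neighbour at 18769648 (signal 139) had 88.9 and 33.4. Whether they are separate sites cannot be told from peak lists. The weakest (18795750, signal 94.8) lay 5559 bp downstream of the ftz-f1-RB start, with 47.9 in replicate 1 and 44.9 in replicate 2. The summits at 18786958 (189) and 18782248 (169) lay more than 14 kb from any ftz-f1 start. Their signals were 97.7 and 77.0 in replicate 1, against 91.4 and 86.3 in replicate 2. They and the summit at 18795750 also lay inside the annotated span of lncRNA:CR45939, so none of them can be assigned to ftz-f1 alone. Of the 6, only the summit 648 bp upstream of the ftz-f1-RC and -RD start (99.3) lay near a TSS. The distal ftz-f1-RB start had no region in any list within 1 kb.

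Eip93F encodes a late prepupal factor of the pipsqueak family, known for its part in salivary gland death. It held 1 summit in 65426 bp (3R:21949114-22014539, plus strand), among the weakest of the set. This intronic summit (21993111, signal 97.9) lay 20732 bp downstream of the Eip93F-RA and -RC start. It had 60.2 in replicate 1 and 35.5 in replicate 2, where it ranked 5633. Among the 3793 highest regions of replicate 2 alone, Eip93F therefore held none. Its span also held 25 weaker pooled regions, of which 3 were matched in both replicates, against 26.5% of all weaker pooled regions.

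**Figure D3:**
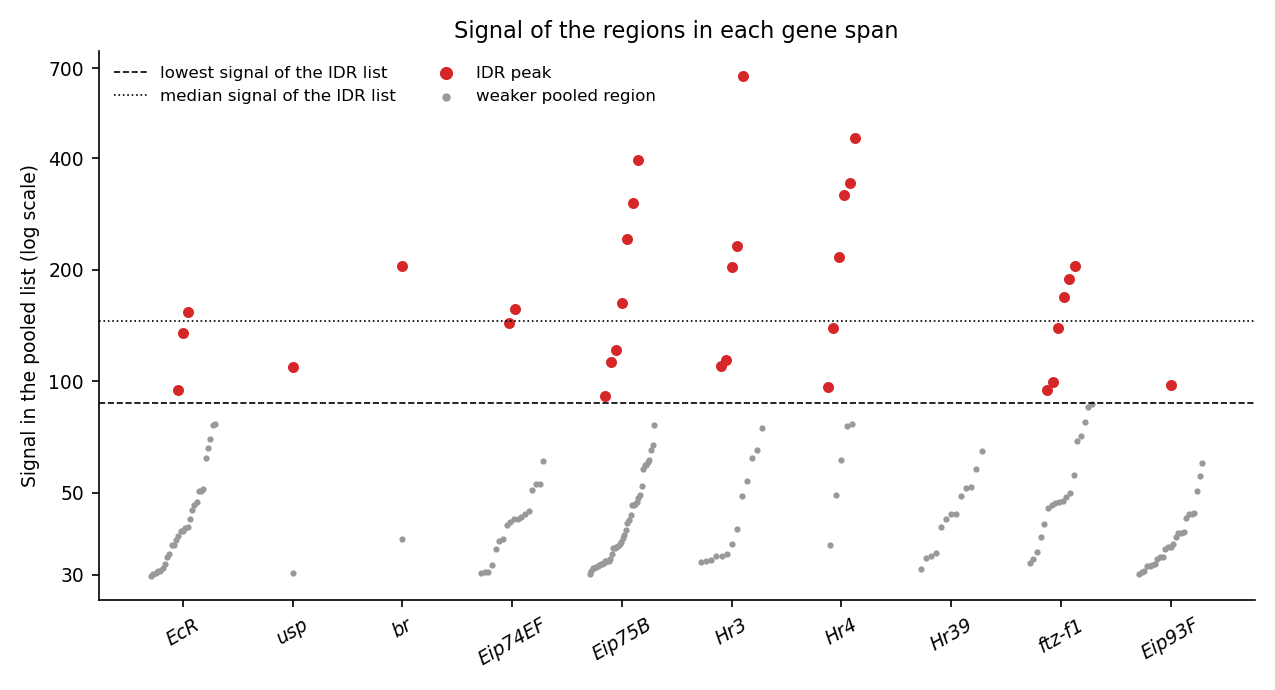
Signal in the pooled list (vertical log axis) of each IDR peak (red) and each weaker pooled region (grey) in the extended span of the 10 genes, sorted within each gene. The dashed line is the lowest signal of the IDR list (87.5) and the dotted line its median (145). Hr3, Hr4 and Eip75B hold the strongest peaks, and all regions of Hr39 lie below the dashed line.

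The regulator peaks as a set were of ordinary strength. Their median signal was 155, against 145 over the IDR list, with a range from 91.0 in Eip75B to 668 in Hr3. Of the 32, 17 lay above the median of the list, 8 in its highest 25% and 6 in its lowest 25%. The 8 strong ones belonged to Hr3 (2), Hr4 (3) and Eip75B (3).

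Replicates differed at these peaks about as much as elsewhere. Of the 32 summits, 30 had a summit within 100 bp in both replicate lists, as did 92.4% of all IDR peaks. Over these 30 the log2 ratio of replicate 1 to replicate 2 had a median of 0.19 and an SD of 0.51 across peaks, against a median of 0.16 and an SD of 0.46 over the 3504 matched IDR peaks. Replicate 1 was higher at 20 of the 30, and at 67.6% of all. More than 2-fold differences occurred at 2 of the 30, in ftz-f1 (log2 ratio 1.41) and Hr4 (-1.29), against 4.94% of all matched peaks. Whether both lists share a scale is not given. By rank, 21 of the 32 lay among the 3793 highest regions of both replicate lists within that distance, against 68.1% of all IDR peaks.

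**Figure D4:**
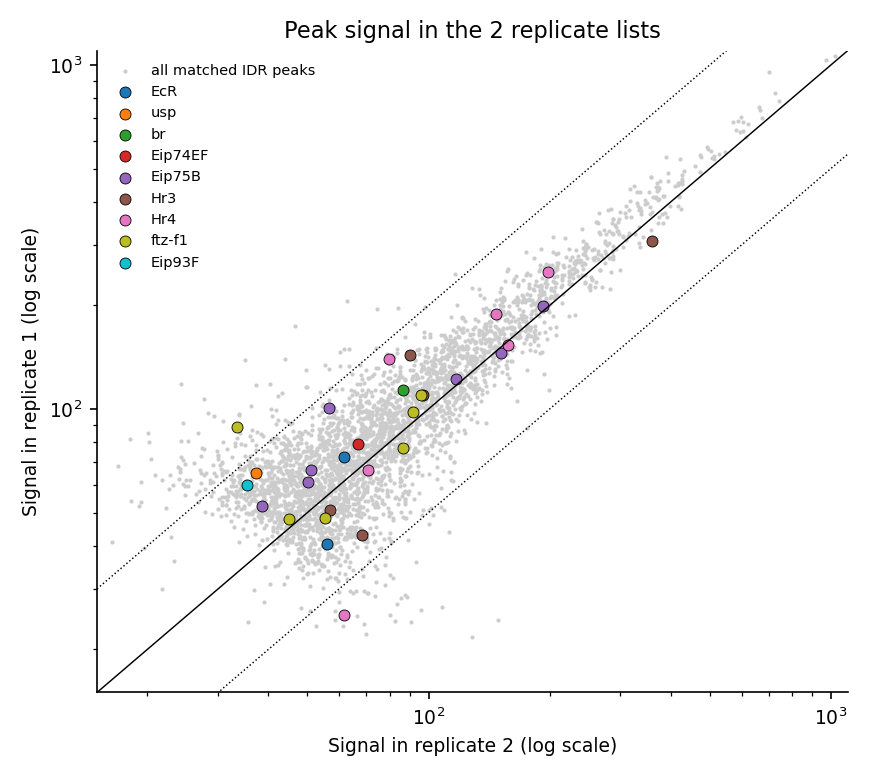
Signal in replicate 1 (vertical log axis) against signal in replicate 2 (horizontal log axis) for the 30 regulator peaks matched in both lists, coloured by gene, and for all 3504 matched IDR peaks in grey. The solid line marks equal signal and the dotted lines 2-fold differences. A ftz-f1 peak lies above and a Hr4 peak below the dotted lines.

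Below the IDR threshold, the spans of the 10 genes held 165 further regions of the pooled list, of which 45 (27.3%) had a summit within 100 bp in both replicate lists, against 26.5% of all 26207 weaker pooled regions. The strongest of them lay in ftz-f1. Its summit 207 bp from an IDR summit, at 18782455, had a pooled signal of 86.6 and rank 3857, just short of the lowest IDR signal of 87.5, with 38.8 in replicate 1 and 43.1 in replicate 2. On the other side, the weakest regulator peak inside the list was the Eip75B peak with 91.0. After 2 further ftz-f1 regions (85.0 and 77.8), the strongest weaker regions of Hr4 (76.7), EcR (76.6), Eip75B (76.2) and Hr3 (74.8) came next. The highest of the other genes followed, in Hr39 (64.7), Eip74EF (60.8) and Eip93F (60.2). Those of br (37.6) and usp (30.4) ranked 18622 and 28930 of 30000. Of the 165, 17 ranked better than 6000, in ftz-f1 (5), EcR (4), Eip75B (3), Hr3 (2), Hr4 (2) and Hr39 (1). Of these 17, 16 were matched in both replicates. The same shares over all weaker pooled regions of such rank are not given here. The 26.5% covers weaker regions of all ranks and cannot be set beside this count. The 4 in EcR had signals of 66.0 or more and lay within 12491 bp upstream of the EcR-RB and -RC start.

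Other genes of the ecdysone pathway were read from lists of hormone synthesis, inducible regulators, receptor cofactors, effectors and juvenile hormone. Of the 63 genes listed, 60 were matched to the annotation by symbol or synonym. Of these, 19 held an IDR summit and 12 were of 20 kb or more. Inducible regulators held summits in 7 of 10 cases, cofactors in 3 of 7 and effectors in 6 of 29. Synthesis and import genes held them in 2 of 11 cases and juvenile hormone genes in 1 of 3. The 11 leave out phm and EcI, which the matching missed, so any summit of theirs is not counted. EcI is another name of Oatp74D, a gene of 24576 bp that held 1 IDR summit. Of all protein-coding genes, 16.2% held a summit. Of these inducible regulators, 5 of 10 were of 20 kb or more, where 57.7% of genes hold a summit.

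Among inducible regulators, E23, which encodes an ABC transporter, held 5 summits. Its highest had a signal of 776 (428 in replicate 1 and 352 in replicate 2), 213 bp upstream of a start of the gene. Next came ken (446), a BTB zinc finger gene, then vri (231), a bZIP gene, and the nuclear receptor gene Hr78 (205), whose summit lay 62 bp from its start. Blimp-1 (123), chinmo (105) and the nuclear receptor gene Eip78C (93.8) had weaker ones, and Hr38, crol and Kr-h1 held none.

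Of the cofactors, the corepressor gene Smr held 6 summits, with the highest at 761 (446 in replicate 1 and 323 in replicate 2), 6379 bp inside the gene from the nearest start. The coactivator gene tai held 4 (highest 191) and bon 2 (307). Of the effectors, Ldh (listed as ImpL3) reached 453, the insulin-binding protein gene ImpL2 426, the cell death gene hid 341, Eip63F-1 248, the kinase gene Eip63E 236 and ImpE1 94.2. The glue protein genes Sgs1, Sgs3, Sgs4, Sgs5, Sgs7 and Sgs8, of which the longest spans 4015 bp, held none. In hormone synthesis, shd, whose product makes 20-hydroxyecdysone from ecdysone, held 1 summit (135) 477 bp upstream of its start, and nvd 1 (109.7). The juvenile hormone receptor gene gce, of 21309 bp, held 3 (highest 608), while its shorter paralog Met, of 5157 bp, held none.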

How the data were processed

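Tio-GFP ChIP-seq peak lists of 2 biological replicates were used, on dm6. Per the labels, chromatin was sonicated to 200 to 800 bp. Per the notes deposited with each sample, replicate lists (30000 regions each, background included) were made from that replicate and 1 control, the pooled list from both replicates and the control, and the IDR list from these. For the aligner, the caller and the IDR threshold, each is not given in the sources used here. The deposited lists give a signal per peak, on an unstated scale, a -log10 q and a summit offset. Depth is unknown, so no interval that needs it is given. Read counts were not used, and lists on dm3 were not analysed here.

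Summits (1-based) were placed on Ensembl annotation BDGP6.54 (release 115), without transposable elements, with sequence from the RefSeq dm6 genome. Gene spans were extended 1000 bp upstream. Replicate and pooled summits within 100 bp were matched. G+C and motifs were read in 201-bp windows. All steps ran in Python 3.11.15 with pandas 2.3.3 and were tested on simulated summits. Every IDR peak in a member's span and every matched pathway gene with a summit is named. Of pathway symbols, 6 were matched by synonym and 3 (phm, EcI and let-7-C) were not matched and are left out of the counts. Members and lists were chosen with earlier results of these data known.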

Additional observations from a re-analysis of the deposited data

How the results depend on the processing

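The number of regulator genes with a peak (9) lay between 7 and 9 when a replicate was left out, and their summits (32) between 29 and 31. Those within 1 kb of a start site (6) lay between 4 and 5. Without replicate 1, usp and Eip93F held none, as in the stronger part of the IDR list, its 1896 highest peaks. That part kept 17 of the summits, 1 of them (Eip75B) within 1 kb of a start site. The other 5 start-site summits, in EcR, usp, Eip75B and ftz-f1, were among the 15 in the weaker part. With a start-site window of 500 bp 3 summits were counted, and with a motif window of 200 bp to either side 11 summits (34.4%, against 27.5% of all IDR summits) carried AGGTCA or AGTTCA. With the nearest protein-coding TSS, br lost its summit to Mur2B. Of the 29 alternatives for the counts and values of the regulator and pathway genes, 25 stayed within 1.5 times the count or 1 SD of the value. No paired analysis was possible because there is 1 group. Depth is unknown, so no counting error could be given, least of all for weak regions.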

Other observations

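At 4 of the 32 regulator summits the window was richer in G and C than its flanks: at Eip75B (18029824, 46.3% against 26.6%), EcR (6151347, 42.3% against 34.6%) and at 2 intronic summits of Hr4 (1984365, 45.8% against 41.3%, and 1963940, 39.8% against 38.3%). The other 28 (87.5%) were poorer, as were 85.2% of all IDR summits. The EcR summit is also 1 of the 2 whose replicate 1 summit lay more than 100 bp away.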
